A study of Rattus norvegicus with 8 samples.

Results

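Transcripts of 10 genes of the NRF2 antioxidant pathway were followed in rat liver: Nfe2l2, which encodes the transcription factor NRF2, Keap1, which encodes its inhibitor, and 8 genes known as NRF2 targets (Nqo1, Hmox1, Gclc, Gclm, Txnrd1, Srxn1, Ephx1 and Akr7a3). They were found as every probe set whose only gene symbol was one of these names, which gave 15 of 31042 probe sets and 10 of 14217 named genes. Each gene is described by the brightest of its probe sets over all arrays unless another is named. Livers came from Sprague-Dawley rats, all males weighing 180 to 200 g, and were taken 8 h after injection. The groups were dexamethasone at 1.5 mg/kg into muscle, AICAR at 0.7 g/kg into the peritoneum, both agents, and vehicle, each with 2 arrays. Every rat had an injection by each of those routes, and saline stood in for an agent that was not given. Dexamethasone is a synthetic glucocorticoid, and AICAR is a cell-permeable nucleoside whose phosphorylated form switches on AMPK, a kinase that senses low energy. Both act on the whole animal, so that effects on liver cells cannot be told apart from effects through other organs. The study's question was whether AMPK alters the metabolic actions of glucocorticoids.

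In unstressed cells KEAP1 holds NRF2 and passes it to a ubiquitin ligase for degradation. Oxidants and electrophiles modify cysteines of KEAP1, after which NRF2 builds up, pairs with small MAF proteins and binds antioxidant response elements (AREs) beside genes for glutathione synthesis, thiol repair and detoxification. In liver this programme protects hepatocytes from reactive drug metabolites and dietary toxins. Because NRF2 is controlled mostly as a protein, its transcript level and its activity can differ, and activity was not measured here.

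Because NRF2 acts through the ARE, the sequence before the annotated starts was searched for it. RefSeq windows of the GRCr8 assembly, from 250 bases before to 50 after an annotated start, were held for 9 of the 10 genes in 11 windows. The ARE core TGACNNNGC was searched on both strands, as was the form TGANTCAGC, which overlaps it. Among the 11 windows, the core was in 1 window of each of 4 genes (Gclm, Txnrd1, Ephx1 and Nfe2l2), against 12.1% of all 33469 windows of that length. The second form was in 1 window of each of 2 genes, Srxn1 and Ephx1, against 1.11% of all windows. The windows below run up to the 4th base after the start, 5′ to 3′ on the gene's strand, with matches in capitals. Nqo1 is shown because its response stood apart, and the other genes because they hold a match.
Nqo1 (chr19:52220264-52220517, minus strand): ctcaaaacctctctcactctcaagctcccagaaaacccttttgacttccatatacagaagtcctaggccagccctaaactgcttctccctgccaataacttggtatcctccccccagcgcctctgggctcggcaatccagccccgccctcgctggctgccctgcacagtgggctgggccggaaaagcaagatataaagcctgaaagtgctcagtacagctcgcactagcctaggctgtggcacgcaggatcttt
Ephx1 (chr13:95263114-95263367, minus strand): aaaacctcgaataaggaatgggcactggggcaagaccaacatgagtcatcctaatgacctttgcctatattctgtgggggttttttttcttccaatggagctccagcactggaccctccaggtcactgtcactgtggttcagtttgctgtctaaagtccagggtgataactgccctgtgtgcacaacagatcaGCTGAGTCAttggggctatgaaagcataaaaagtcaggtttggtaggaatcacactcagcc
Gclm (chr2:213031885-213032138, plus strand): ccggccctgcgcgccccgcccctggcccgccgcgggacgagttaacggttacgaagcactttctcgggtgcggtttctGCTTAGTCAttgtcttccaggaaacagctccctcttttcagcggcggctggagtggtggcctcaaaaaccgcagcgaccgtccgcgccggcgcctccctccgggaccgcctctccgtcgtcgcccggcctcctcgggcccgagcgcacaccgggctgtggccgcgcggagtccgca
Txnrd1 (chr7:22755901-22756154, minus strand): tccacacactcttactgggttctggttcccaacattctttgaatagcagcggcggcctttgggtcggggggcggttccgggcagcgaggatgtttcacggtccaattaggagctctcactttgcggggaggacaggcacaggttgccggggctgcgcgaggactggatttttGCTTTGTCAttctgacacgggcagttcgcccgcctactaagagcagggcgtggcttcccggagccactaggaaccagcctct
Srxn1 (chr3:161064562-161064815, plus strand): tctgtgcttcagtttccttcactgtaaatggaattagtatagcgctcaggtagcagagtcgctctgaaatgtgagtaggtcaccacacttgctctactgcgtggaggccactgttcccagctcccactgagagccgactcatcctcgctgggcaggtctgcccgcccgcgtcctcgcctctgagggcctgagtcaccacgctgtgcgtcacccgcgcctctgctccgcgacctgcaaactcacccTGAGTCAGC
Counted from the start, the match lay at bases -57 to -49 in Ephx1, -78 to -70 in Txnrd1 and -172 to -164 in Gclm, all on the other strand. The match of Srxn1 spanned the start itself, and that of Nfe2l2 lay after it, at bases 39 to 47, beyond the stretch printed for the others. Neither form was in the Nqo1 window, which says only that these letters are not in it. The core GCGTG of the aryl hydrocarbon receptor (AHR) site, which is known to act on Nqo1 as well, was in 1 place of that window, at bases -10 to -6. It was also in 1 window of each of Srxn1, Akr7a3, Txnrd1, Keap1 and Gclc. Thus 6 of the 9 genes held it in 1 of their windows, and 29.7% of all windows did. A second annotated start of Ephx1 and one of Txnrd1 had no ARE match in their windows.

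The arrays of a group agreed closely, with correlations across probe sets of 0.997 to 0.998, against 0.979 to 0.993 between groups. The number of arrays limits the precision of every value, and no label says whether a group's arrays are different rats, so that p-values measure a spread that may be technical. Levels are RMA values on the log2 scale, in which 1 unit is a doubling, and the lower quartile of an array was at least 3.84. Differences are given ± the standard error of limma, and a difference was called at a Benjamini-Hochberg adjusted p under 0.05 over all probe sets. The comparisons with vehicle share the same 2 vehicle arrays, and the other comparisons share arrays with them. The actin control's 3′ end exceeded its 5′ end by 2.03 and 2.04 after dexamethasone, 1.79 and 1.84 after AICAR, 1.77 and 1.83 after both and 2.20 and 2.26 in vehicle, a measure of RNA quality that moved with treatment and whose part in small differences was not tested. All 9 hepatocyte markers measured, albumin among them, lay above the lower quartile in every group. The sinusoidal endothelial and stellate cell markers did so too, so that this level alone does not identify the tissue. Of the 9 hepatocyte markers, 2 rose after dexamethasone, with a median difference of 0.03, 1 fell after AICAR, and 3 rose after both. Among all genes 8.37% rose after dexamethasone, 8.96% fell after AICAR and 15.9% rose after both.

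**Figure D1:**
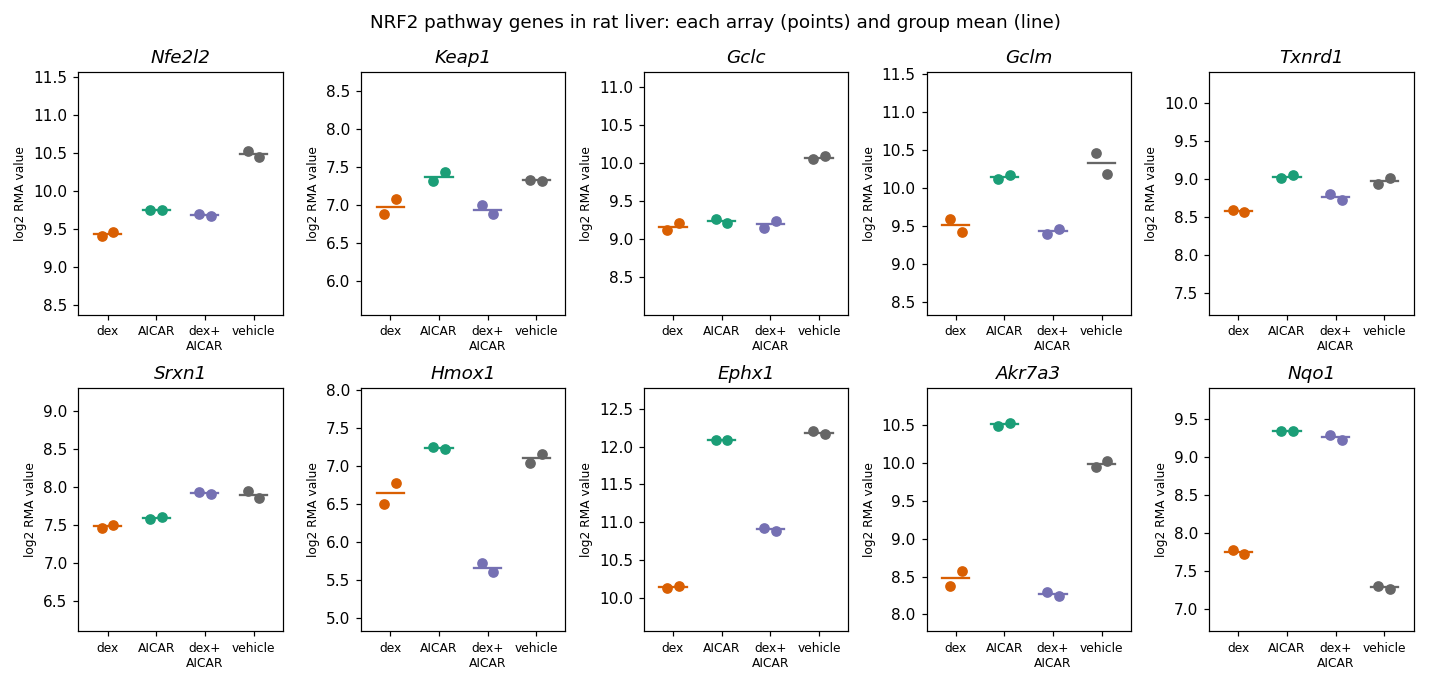
Each panel plots the log2 RMA value of 1 gene in every array (points) and the mean of each group (line), with all panels spanning the same range of 3.2 log2 units. Most genes were lower after dexamethasone than in vehicle, while Nqo1 was high in the 4 arrays of the rats given AICAR, alone or with dexamethasone.

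Dexamethasone alone lowered the pathway's transcripts, with Nqo1 as the exception. Of the 10 genes, 9 fell and 1, Nqo1, rose; over all 14217 genes 14.3% fell and 8.37% rose (22.7% in either direction). The median difference was -0.64, against -0.03 over all genes. By probe set, 10 of 15 fell and 1 rose, against 9.77% and 8.67% of all probe sets (18.4% in either direction). By the brightest probe sets the falls covered the transcription factor, its inhibitor and targets of every class. They ranged from -0.35 for Keap1 to -2.03 for Ephx1. The dimmer probe sets of Keap1 (0.02 ± 0.14), Txnrd1 (-0.22 ± 0.09) and Srxn1 (-0.21 ± 0.09 and 0.25 ± 0.16) were not called. With probe sets averaged, neither Keap1 (-0.16, adjusted p = 0.28) nor Srxn1 (-0.13, adjusted p = 0.288) was called. Macrophage markers fell in the same arrays (9 of 10, median -1.04), as did 6 of 11 lymphocyte markers, 5 of 7 sinusoidal endothelial markers and 3 of 5 erythroid markers. In a whole liver, fewer cells of a type and less RNA per cell cannot be told apart.

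**Figure D2:**
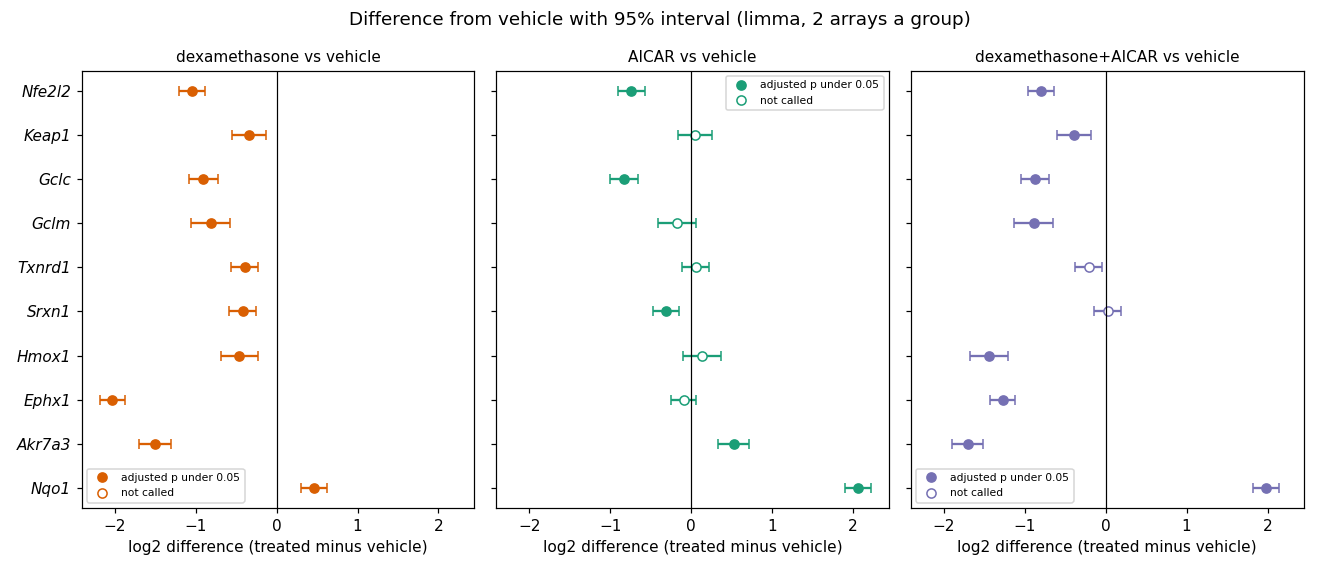
The difference from vehicle of each gene on the log2 scale is plotted with its 95% interval for dexamethasone, AICAR and both agents, with filled points for adjusted p under 0.05. Nqo1 lies right of 0 in all 3 panels, and the other genes lie mostly left of 0 or across it, with Akr7a3 right of 0 after AICAR.

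Nfe2l2 was lower under each treatment. It read 9.41 and 9.46 after dexamethasone, 9.74 and 9.75 after AICAR and 9.67 and 9.70 after both, against 10.45 and 10.53 in vehicle. All treated arrays lay below both vehicle arrays, and those of dexamethasone alone were lowest. Nfe2l2 changed by -1.05 ± 0.07 after dexamethasone (2.07-fold lower, adjusted p = 2.42e-05), by -0.74 ± 0.07 after AICAR (adjusted p = 5.42e-04) and by -0.80 ± 0.07 after both (adjusted p = 6.49e-05). Dexamethasone therefore made no called difference when AICAR was present (-0.06 ± 0.07, adjusted p = 0.546). The rise with the combination over dexamethasone alone was small (0.25 ± 0.07, adjusted p = 0.0413), and it lost its call without any 1 array (adjusted p from 0.0512 to 0.184).

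Keap1, the adaptor that marks NRF2 for degradation, moved much less. Its level was 6.88 and 7.08 after dexamethasone, 7.32 and 7.43 after AICAR and 6.88 and 6.99 after both, against 7.32 and 7.33 in vehicle. The groups given dexamethasone lay below the others, and the AICAR arrays overlapped the vehicle arrays. The fall after dexamethasone (-0.35 ± 0.09, adjusted p = 0.0312) lost its call without vehicle replicate 1 or 2 (adjusted p = 0.112 and 0.104) or dexamethasone replicate 1 (0.15). The fall after both agents (-0.39 ± 0.09, adjusted p = 0.0134) lost its call without vehicle replicate 1 or 2 (0.0598 and 0.0541) or combination replicate 2 (0.0937). A dimmer probe set of Keap1 gave 0.02 ± 0.14 after dexamethasone (adjusted p = 0.943) and -0.58 ± 0.14 after both (adjusted p = 0.0174), so that 1 of its 2 probe sets was called on dexamethasone alone.

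Gclc and Gclm encode the catalytic and the modifier subunit of glutamate-cysteine ligase, the rate-limiting enzyme of glutathione synthesis. Gclc read 9.12 and 9.22 after dexamethasone, 9.21 and 9.27 after AICAR and 9.15 and 9.25 after both, against 10.05 and 10.09 in vehicle. The treated groups overlapped each other and lay well below vehicle. The differences from vehicle were -0.91 ± 0.08, -0.84 ± 0.08 and -0.88 ± 0.08 (adjusted p = 8.42e-05, 4.12e-04 and 6e-05 in that order). The other Gclc probe set was also lower in each treated group, by -0.64 ± 0.07, -0.51 ± 0.07 and -0.53 ± 0.07.

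Gclm separated from its partner after AICAR. It read 9.42 and 9.59 after dexamethasone, 10.12 and 10.18 after AICAR and 9.40 and 9.46 after both, against 10.19 and 10.46 in vehicle. The AICAR arrays lay just below vehicle, and the groups given dexamethasone were far lower. Gclm changed by -0.82 ± 0.10 after dexamethasone (adjusted p = 8.75e-04) and by -0.89 ± 0.10 after both (adjusted p = 3.01e-04), while AICAR alone gave -0.18 ± 0.10 with a 95% interval of -0.41 to 0.06 (adjusted p = 0.32).

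Txnrd1 and Srxn1 serve thiol repair: cytosolic thioredoxin reductase regenerates thioredoxin, and sulfiredoxin restores over-oxidised peroxiredoxins. Txnrd1 read 8.57 and 8.59 after dexamethasone, 9.01 and 9.05 after AICAR and 8.73 and 8.81 after both, against 8.94 and 9.02 in vehicle. Txnrd1 fell after dexamethasone (-0.40 ± 0.07, adjusted p = 0.00594), and the difference after both was smaller and not called (-0.21 ± 0.07, adjusted p = 0.066). Its dimmer probe set gave -0.22 ± 0.09 after dexamethasone and was not called (adjusted p = 0.152), so that the call after dexamethasone rests on the brighter probe set.

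Srxn1 read 7.46 and 7.50 after dexamethasone, 7.57 and 7.60 after AICAR and 7.90 and 7.94 after both, against 7.85 and 7.94 in vehicle. Either agent alone went with a lower level, and the combination overlapped vehicle. The change was -0.42 ± 0.07 after dexamethasone (adjusted p = 0.00413) and -0.31 ± 0.07 after AICAR (adjusted p = 0.0262), and the difference after both was 0.02 ± 0.07 (adjusted p = 0.861). The fall after AICAR lost its call without any 1 vehicle or AICAR array (adjusted p from 0.059 to 0.131). The other 2 probe sets of Srxn1 were dim, with group means of 4.99 or less, and gave no call in any comparison. With the 3 averaged, the change was -0.13 after dexamethasone (adjusted p = 0.288) and 0.0081 after AICAR (adjusted p = 0.958), so that the calls of Srxn1 rest on its brightest probe set.

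Hmox1 encodes the inducible heme oxygenase, which breaks heme down to biliverdin, carbon monoxide and iron, and which is known to be high in Kupffer cells, the macrophages of liver. It read 6.51 and 6.77 after dexamethasone, 7.23 and 7.25 after AICAR and 5.60 and 5.72 after both, against 7.04 and 7.16 in vehicle. The combination arrays were the lowest by far, and the AICAR arrays lay slightly above vehicle. The change after both agents was -1.44 ± 0.10 (2.71-fold lower, adjusted p = 1.7e-05), against -0.46 ± 0.10 after dexamethasone alone (adjusted p = 0.0138) and 0.14 ± 0.10 after AICAR alone (adjusted p = 0.434). That call after dexamethasone alone did not hold without replicate 2 of vehicle (adjusted p = 0.0867), nor without replicate 1 of dexamethasone (0.0708).

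The summed level of the Kupffer cell and macrophage markers had the same order of groups as Hmox1. All 10 measured fell after both agents (median -4.22), 9 fell after dexamethasone, and after AICAR 3 rose and 1 fell (median 0.27). Among all genes 18.4% fell after both agents, 14.3% fell after dexamethasone, and 6.22% rose and 8.96% fell after AICAR. Summed on the linear scale the markers came to 2249 to 2498 after dexamethasone, 5550 to 5647 after AICAR and 209 to 219 after both, against 5055 to 5141 in vehicle. After both agents 4 of them, Cd5l, Cd163, Adgre1 and Aif1, had means below the lower quartile of every array. Their part in the fall of Hmox1 was not tested.

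**Figure D3:**
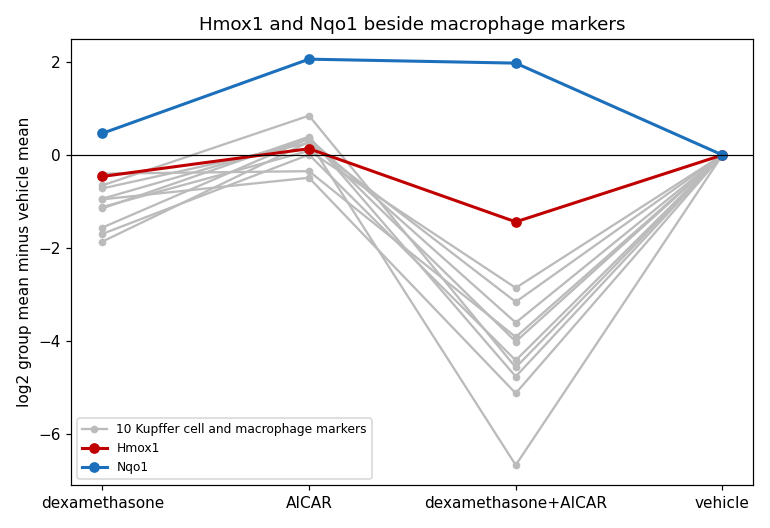
Group means minus the vehicle mean on the log2 scale are plotted for Hmox1 (red), Nqo1 (blue) and each of 10 Kupffer cell and macrophage markers (grey), with lines that only join the groups of 1 gene. Hmox1 and the markers are lowest after both agents, where Hmox1 stands at -1.44 and the markers' median is -4.22, while Nqo1 stands at 1.98.

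Ephx1 and Akr7a3 encode detoxifying enzymes, microsomal epoxide hydrolase and an aldo-keto reductase known in rat liver for acting on aflatoxin dialdehyde. Ephx1 read 10.13 and 10.17 after dexamethasone, 12.09 in each AICAR array and 10.89 and 10.93 after both, against 12.16 and 12.20 in vehicle. Dexamethasone gave the lowest level, and with AICAR added the level was intermediate. The changes were -2.03 ± 0.07 after dexamethasone (4.09-fold lower, adjusted p = 5.57e-07), -0.09 ± 0.07 after AICAR (adjusted p = 0.433) and -1.27 ± 0.07 after both (adjusted p = 3.52e-06). The combination was thus higher than dexamethasone alone by 0.76 ± 0.07 (adjusted p = 1.3e-04). By size the fall after dexamethasone ranked 33rd of all 14217 genes.

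Akr7a3 was the other gene that AICAR alone raised. It read 8.37 and 8.58 after dexamethasone, 10.49 and 10.52 after AICAR and 8.25 and 8.29 after both, against 9.94 and 10.02 in vehicle. The AICAR arrays were above all others, and the groups given dexamethasone were lowest. It changed by -1.50 ± 0.09 after dexamethasone (adjusted p = 8.66e-06), by 0.52 ± 0.09 after AICAR (adjusted p = 0.00651) and by -1.71 ± 0.09 after both (adjusted p = 2.35e-06).

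Nqo1, a quinone reductase that turns quinones into hydroquinones and is often taken as the readout of NRF2 activity, was the gene that rose under every treatment. It read 7.72 and 7.77 after dexamethasone, 9.34 in each AICAR array and 9.22 and 9.29 after both, against 7.26 and 7.29 in vehicle. No array of a treated group overlapped vehicle, and the 4 arrays with AICAR lay over 1 log2 unit above the rest. The rise was 2.06 ± 0.07 after AICAR (4.18-fold, adjusted p = 2.22e-06), 1.98 ± 0.07 after both (3.94-fold, adjusted p = 3.09e-07) and 0.47 ± 0.07 after dexamethasone (1.38-fold, adjusted p = 0.00207). After AICAR it ranked 6th of 14217 genes by size of rise, while the next of the pathway, Akr7a3, ranked 251st.

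After AICAR alone, 2 of the 10 genes rose and 3 fell, against 6.22% and 8.96% of all genes (15.2% in either direction), and the median difference was -0.02 (0.00 over all genes). By probe set 2 of 15 rose and 4 fell, against 5.45% and 7.47% of all probe sets (12.9% in either direction). Nfe2l2, Gclc and Srxn1 fell, Nqo1 and Akr7a3 rose, and Keap1, Gclm, Txnrd1, Hmox1 and Ephx1 were not called, with differences of -0.18 to 0.14. After both agents 1 of 10 rose, Nqo1, and 7 fell, against 15.9% and 18.4% of all genes (34.4% in either direction), with a median of -0.84. By probe set 1 rose and 9 fell, against 13.3% and 13.6% of all probe sets (26.9% in either direction). Across the 8 arrays the correlation of the other members with Nqo1 ran from r = -0.67 for Gclc to 0.21 for Txnrd1, as a description of arrays that share 4 treatments.

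The genes whose pattern was most like that of Nqo1, by Pearson r over the 8 arrays among 1095 genes with group means at least 1 log2 unit apart, were Lum (r = 0.990), Akr1c1 (0.984), Lcn2 (0.983), Timp1 (0.978) and Itga1 (0.977). These were picked as the highest of 1095 values, over arrays that share 4 treatments, and serve as a description only. Lum encodes a matrix proteoglycan, Lcn2 the iron-sequestering protein lipocalin 2, Timp1 a metalloproteinase inhibitor and Itga1 an integrin chain. Akr1c1, an aldo-keto reductase gene of the same detoxifying kind, read 9.18 after dexamethasone, 10.22 after AICAR and 9.97 after both, against 9.06 in vehicle, as group means. Of 10 stellate cell and fibroblast markers 6 rose after AICAR, among them Lum, while after both agents 4 rose and 3 fell, and after dexamethasone 2 rose and 3 fell. Of 5 neutrophil markers 3, S100a8, S100a9 and Csf3r, rose after AICAR and after both, and S100a8 and S100a9 fell after dexamethasone. Csf3r had group means of 3.15 to 3.66, below the lower quartile of every array, and the remaining neutrophil markers were not called. For comparison, 6.22% of all genes rose and 8.96% fell after AICAR, 15.9% and 18.4% after both, and 8.37% and 14.3% after dexamethasone. Of 11 lymphocyte, 7 sinusoidal endothelial and 5 erythroid markers 2, 1 and 1 fell after AICAR and 8, 4 and 3 after both, and none rose. Of 6 cholangiocyte markers 1 rose, Krt19 (0.56 ± 0.09), and 1 fell, Epcam (-0.32 ± 0.07), after AICAR, 1 rose after both and none was called after dexamethasone. The part of these cells in the level of Nqo1 was not tested.

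Nqo1 also belongs to the AHR gene battery. Of 8 other genes listed for AHR, which include the gene of the receptor itself, 3 rose after AICAR. They were the receptor gene Ahr (1.20 ± 0.07), Cyp1a1 (0.92 ± 0.12) and Cyp1a2 (0.76 ± 0.07). Tiparp fell (-0.32 ± 0.07). After both agents, when Nqo1 stood 1.98 above vehicle, 2 of the 8 rose, Cyp1a1 (1.22 ± 0.12) and Ahr (0.34 ± 0.07), and 2 fell, Cyp1a2 (-0.71 ± 0.07) and Tiparp (-0.23 ± 0.07). After dexamethasone alone 2 rose, Cyp1a1 (2.62 ± 0.12) and Ahr (0.82 ± 0.07), and none fell. The part of AHR in the level of Nqo1 was not tested. Genes of the xenobiotic receptors CAR and PXR, which are also known to act on Ephx1, moved both ways. After dexamethasone 5 of 12 rose, led by Ces2c (6.10 ± 0.14), Por (1.85 ± 0.10) and Nr1i2 (1.03 ± 0.08), and 4 fell, among them Cyp3a23-3a1 (-0.57 ± 0.07). After AICAR 3 rose and 2 fell, and after both 4 rose and 4 fell. Of all genes 8.37% rose and 14.3% fell after dexamethasone, 6.22% and 8.96% after AICAR, and 15.9% and 18.4% after both.

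A longer list held NRF2 target genes that are not among the 10. Of 34 measured, 20 fell and 1 rose after dexamethasone, with a median of -0.37 (-0.03 over all genes). Of all genes 14.3% fell and 8.37% rose. The deepest falls were in Aldh1a1, a retinal dehydrogenase gene (-2.74 ± 0.08), Osgin1, an oxidative stress-induced growth inhibitor gene (-2.20 ± 0.07), and Gsta3, a glutathione transferase gene (-1.37 ± 0.12). Taldo1, of the pentose phosphate pathway, rose (0.37 ± 0.07). Glutathione transferase genes have close relatives whose transcripts these probe sets may also bind.

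After AICAR the same list was mixed, with 7 rises, 4 falls and a median of 0.04 (0.00 over all genes). Among all genes 6.22% rose and 8.96% fell. Gsta3 rose by 0.75 ± 0.12, the autophagy receptor gene Sqstm1 by 0.64 ± 0.07 and the pentose phosphate gene Pgd by 0.46 ± 0.07, while Aldh1a1 changed by -1.17 ± 0.08 and the reductase gene Ptgr1 by -0.88 ± 0.08. No gene of the list rose as far as Nqo1. These 11 calls became 7 without vehicle replicate 1 and 6 without vehicle replicate 2 or either AICAR array. After both agents 19 fell and 4 rose (median -0.35), against 18.4% and 15.9% of all genes. Aldh1a1 stood at -2.11 ± 0.08, the oxidase gene Aox1 at -2.07 ± 0.07 and the glutathione synthetase gene Gss at 0.60 ± 0.08.

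**Figure D4:**
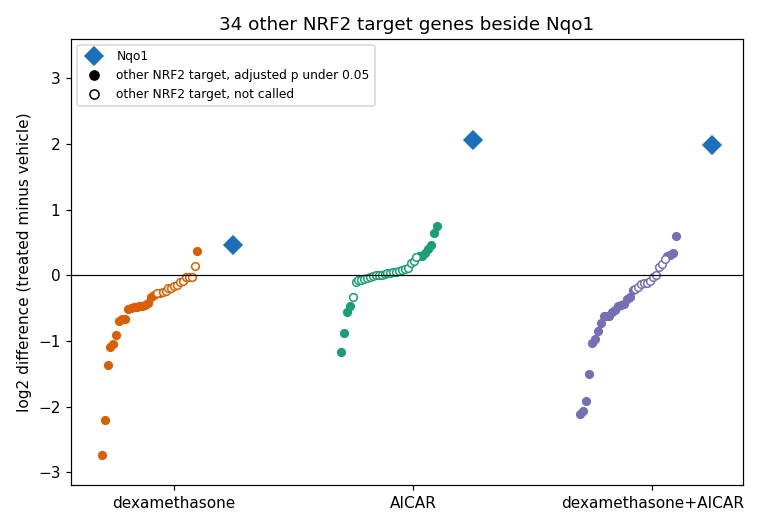
The difference from vehicle on the log2 scale is plotted for 34 other NRF2 target genes (circles, sorted within each treatment, filled where adjusted p was under 0.05) and for Nqo1 (diamond). Nqo1 lies above every circle in each treatment, at 0.47, 2.06 and 1.98.

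Regulators and partners of NRF2 other than Keap1 were next counted. Of 13 measured, 3 fell after dexamethasone, including the mitochondrial phosphatase gene Pgam5 (-0.65 ± 0.09) and the related factor gene Nfe2l1 (-0.37 ± 0.09), and 2 fell after AICAR. These counts are near the share called among all genes, 22.7% after dexamethasone and 15.2% after AICAR. After both agents 5 rose and 2 fell, where 34.4% of all genes were called, with Rbx1, a subunit of the ligase that degrades NRF2, at 0.38 ± 0.07, and the repressor gene Bach1 at 0.36 ± 0.09. The small MAF partner genes that were called went both ways, with Mafk at 0.32 ± 0.10 and Mafg at -0.22 ± 0.07.

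The combination was then set against each single agent. Compared with dexamethasone alone, 4 of the 10 genes were higher and 1 lower, against 14.0% and 11.3% of all genes (25.4% in either direction). By probe set 4 of 15 were higher and 2 lower, against 10.2% and 9.91% of all probe sets (20.1% in either direction). Nqo1 was higher by 1.51 ± 0.07 (adjusted p = 2.76e-06), followed by Ephx1, Srxn1 (0.44 ± 0.07, adjusted p = 0.00292) and Nfe2l2, and Hmox1 was lower (-0.98 ± 0.10, adjusted p = 2.68e-04). The call of Nfe2l2 was lost in a fit with the replicate number as a block (adjusted p = 0.0588). With the probe sets of Srxn1 averaged, its rise was 0.12 and not called (adjusted p = 0.324). Keap1 was not called by its brighter probe set (-0.04 ± 0.09, adjusted p = 0.81) but was lower by its dimmer one (-0.60 ± 0.14, adjusted p = 0.0195). Compared with AICAR alone, 6 were lower and 1 higher, against 19.4% and 18.7% of all genes (38.2% in either direction). By probe set 8 of 15 were lower and 1 higher, against 14.9% and 15.9% of all probe sets (30.8% in either direction). The largest differences were those of Akr7a3 (-2.23 ± 0.09), Hmox1 (-1.58 ± 0.10), Ephx1 (-1.18 ± 0.07) and Gclm (-0.72 ± 0.10), and Srxn1 was the gene that was higher (0.33 ± 0.07, adjusted p = 0.00788). Calls of this comparison that turned on 1 array were those of Txnrd1, Keap1 and Srxn1. Txnrd1 (-0.27 ± 0.07, adjusted p = 0.0232) lost its call without any 1 array of either group (adjusted p from 0.0602 to 0.137). Keap1 (-0.44 ± 0.09, adjusted p = 0.00688) lost it without combination replicate 2 (adjusted p = 0.0547), and Srxn1 without combination replicate 1 (adjusted p = 0.0557). With all arrays the dimmer probe sets of Keap1 (-0.95 ± 0.14, adjusted p = 0.00119) and Txnrd1 (-0.35 ± 0.09, adjusted p = 0.0216) were also called lower, while those of Srxn1 gave no call. Nqo1 did not pass here (-0.09 ± 0.07, adjusted p = 0.408, 95% interval -0.25 to 0.07), and the other NRF2 targets fell in 18 of 34 cases and rose in 4.

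Whether dexamethasone acted differently with AICAR present was tested as an interaction, the effect of dexamethasone with AICAR minus that without. It was called for 7 of the 10 genes, 4 with a positive and 3 with a negative value, against 11.9% and 8.05% of all genes (20.0% in either direction). By probe set 5 of 15 were positive and 4 negative, against 8.63% and 7.02% of all probe sets (15.6% in either direction). Nfe2l2 had the largest positive value (0.99 ± 0.10, adjusted p = 4.43e-04), followed by Gclc (0.86 ± 0.11, adjusted p = 0.00125), Ephx1 (0.85 ± 0.10, adjusted p = 7.98e-04) and Srxn1 (0.75 ± 0.10, adjusted p = 0.00183). For Gclc the dexamethasone effect was -0.04 ± 0.08 with AICAR and -0.91 ± 0.08 without, and AICAR alone had also gone with a lower level. For the brightest probe set of Srxn1 the effect was 0.33 ± 0.07 with AICAR and -0.42 ± 0.07 without, so that its direction differed. With the probe sets of Srxn1 averaged, the effect was -0.02 with AICAR and -0.13 without, and the interaction was not called (0.11, adjusted p = 0.539).

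The negative interactions were those of Hmox1 (-1.11 ± 0.14, adjusted p = 0.00142), Akr7a3 (-0.73 ± 0.12, adjusted p = 0.00503) and Nqo1 (-0.55 ± 0.10, adjusted p = 0.00717). The dexamethasone effect on Akr7a3 was -2.23 ± 0.09 with AICAR and -1.50 ± 0.09 without. On Nqo1 it was -0.09 ± 0.07 with AICAR and 0.47 ± 0.07 without. No interaction was called for Gclm (0.10 ± 0.15, 95% interval -0.24 to 0.44), Txnrd1 (0.13 ± 0.10, -0.11 to 0.36) or Keap1 (-0.09 ± 0.13, -0.39 to 0.21), although the dimmer Keap1 probe set gave -0.97 ± 0.20 (adjusted p = 0.0138) and the mean of both Keap1 probe sets -0.53 (adjusted p = 0.0274). Of the 34 other NRF2 targets 7 had a positive and 7 a negative interaction (5 and 8 after cyclic loess or centring). Among all genes 11.9% and 8.05% did. The targets were led by Aldh1a1 (1.79 ± 0.11) and Sqstm1 (-1.34 ± 0.10). The 14 calls became 6 to 10 when any 1 array was left out, with 9 without vehicle replicate 1, 8 without dexamethasone replicate 2 or combination replicate 2, 7 without vehicle replicate 2 or combination replicate 1 and 6 without AICAR replicate 1.

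**Figure D5:**
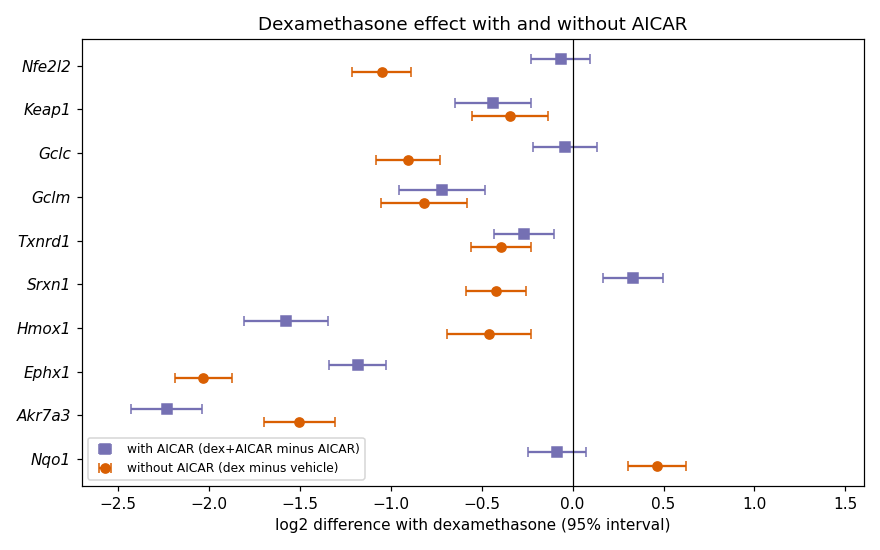
The log2 effect of dexamethasone is plotted for each gene with its 95% interval, with AICAR (squares, both agents minus AICAR) above and without AICAR (circles, dexamethasone minus vehicle) below. The intervals of Nfe2l2, Gclc, Srxn1, Hmox1, Ephx1, Akr7a3 and Nqo1 do not overlap, and those of Keap1, Gclm and Txnrd1 do.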

How the data were processed

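Liver RNA of the 8 samples was hybridised to 1 Affymetrix rat expression array each. Per the submitters' processing notes, the authors used affy and RMA to make the deposited values, which are log2 signals per probe set; no version is given in the sources used here. This method corrects background, sets all arrays to 1 distribution and gives no detection call, and it understates changes of dim probe sets. The log base was read from the range of the values. Of 31099 probe sets, 57 array controls were left out of the tests. The platform annotation gave 1 symbol for 20826 of the rest, several for 436 and none for 9780, and gene IDs were checked against GRCr8.

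Groups were taken from the labels. Differences were fitted over all 8 arrays with a coefficient for each group, using limma 3.58.1 (R 4.3.3) and 4 residual plus 4.58 prior degrees of freedom, in 6 comparisons, with Benjamini-Hochberg adjustment over 31042 probe sets. The fit was tested on simulated data. With 2 arrays a group no exact permutation test of a single gene could pass the threshold. The members, the 12 other gene lists (130 of 151 symbols measured) and the tests were chosen with earlier results of these data known. All members are named; from other lists, up to 3 called genes with the largest rise and 3 with the largest fall in a comparison were eligible, with the 5 genes most like Nqo1. The fits were repeated without dim probe sets, with a trended robust prior, on the compared groups alone, with the replicate number as a block, after cyclic loess or centring, on averaged probe sets and without each array in turn. Deviations of same-numbered arrays correlated at 0.16 between dexamethasone and vehicle, and at -0.04 to 0.01 between the other pairs of groups.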

Additional observations from a re-analysis of the deposited data

Results flagged for a closer look

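In 7 of the 10 genes the effect of dexamethasone differed between rats given AICAR and rats not given it, by limma's interaction test. By the same test 20.0% of all genes were called, 11.9% with a positive and 8.05% with a negative value. The difference (effect with AICAR minus effect without, log2 scale) was 0.99 for Nfe2l2, 0.86 for Gclc, 0.85 for Ephx1 and 0.75 for Srxn1. It was -1.11 for Hmox1, -0.73 for Akr7a3 and -0.55 for Nqo1. All 7 were still called when any 1 array was left out. The value of Srxn1 rests on its brightest probe set, and with its 3 probe sets averaged it was 0.11 (adjusted p = 0.539). Groups of 2 arrays are too small for a search for outlying arrays.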

How the results depend on the processing

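The number of the 10 genes called stayed within 1.5 times under every alternative: 8 to 10 after dexamethasone, 4 to 5 after AICAR, 7 to 9 after both, 4 to 7 for both against dexamethasone, 5 to 7 for both against AICAR and 7 for the interaction. Of the values of single genes 832 kept direction and side of the threshold, 35 lost a call, 8 gained one and 15 changed sign; the causes were not tested. With probe sets averaged, Srxn1 changed sign after AICAR (0.0081), after both (-0.0096) and for both against AICAR (-0.018), and lost its call after dexamethasone (-0.13, adjusted p = 0.288) and for both against dexamethasone (0.12, adjusted p = 0.324); Keap1 lost its call after dexamethasone (-0.16, adjusted p = 0.28) and gained one for both against dexamethasone (-0.32, adjusted p = 0.0411) and for the interaction (-0.53, adjusted p = 0.0274). The other sign changes were of uncalled values. Under cyclic loess Gclc for both against dexamethasone was -0.022 and the Gclm interaction -0.018. Leaving out each array gave, for both against dexamethasone, -0.021 to 0.080 for Gclc, -0.16 to 0.010 for Gclm and -0.14 to 0.061 for Keap1. It gave -0.036 to 0.23 for the Gclm interaction, -0.19 to 0.013 for the Keap1 interaction, -0.0087 to 0.11 for Keap1 after AICAR, -0.024 to 0.069 for Srxn1 after both, and -0.089 to 0.0066 for Gclc for both against AICAR.

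Txnrd1 after both agents became called without dim probe sets (adjusted p = 0.0189), with a trended robust prior (0.00704) and under cyclic loess (0.0431). With the replicate number as a block, Nfe2l2 for both against dexamethasone lost its call (0.25, adjusted p = 0.0588), so that 4 of the 10 genes were called there; the block changed no other call of the 10 genes. The trended robust prior called 6048 probe sets after AICAR and the fit of only the compared groups 2345, against 4011. No fit of only the compared groups exists for the interaction, which needs all 4. Leaving out each array in turn gave 3738 to 5303 probe sets after dexamethasone (5726 with all), 1447 to 3819 after AICAR, 5677 to 8386 after both (8350), 3698 to 5985 for both against dexamethasone (6233), 6510 to 9596 for both against AICAR (9563) and 2910 to 3991 for the interaction (4858). The arrays whose removal moved a count by over 1.5 times were vehicle replicate 2 for dexamethasone, both vehicle and both AICAR arrays for AICAR, both combination arrays for the combination against dexamethasone, and AICAR replicate 1 and both combination arrays for the interaction. For the 34 other NRF2 targets, added after the data were seen, it gave 17 to 20 calls after dexamethasone, 6 to 11 after AICAR, 18 to 22 after both, 11 to 16 and 18 to 22 for both against dexamethasone and AICAR, and 6 to 10 for the interaction, with the 11 without combination replicate 2. Centring turned the share of higher calls to 57.6%, 56.1% and 44% for dexamethasone, AICAR and the interaction, against 47%, 42.2% and 55.1% as deposited, and left the split of the 10 genes as it was. Signal near background limits the dim probe sets of Srxn1 and Keap1.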
